A study of Homo sapiens with 6 samples.

Results

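The G1 cyclins CCND1, CCND2, CCND3, CCNE1 and CCNE2, the kinases CDK2, CDK4 and CDK6, and the transcription factors E2F1 and MYC drive cells from G1 into S phase. These 10 genes, called the G1 genes here, were picked by symbol out of 23459 genes in a table of 3′ mRNA-Seq counts, and all 10 were found in it. The libraries come from MCF10A, a line of human breast epithelium that is not transformed, was described as WT in all 6 libraries and grew with serum, insulin, hydrocortisone, cholera toxin and EGF. All 6 samples received 20 nM siRNA by lipid transfection, 3 of them (siCtrl) a non-targeting control and 3 (siYAP/TAZ) siRNA against the Hippo pathway effectors YAP and TAZ, the latter encoded by WWTR1. The time between transfection and harvest is not given in the sources used here. MCF10A is a single line with a known loss of the CDKN2A and CDKN2B region and extra copies of MYC, and it divides only while EGF is supplied.

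Growth factor signals raise the D-type cyclins, which activate CDK4 and CDK6. These kinases phosphorylate the retinoblastoma protein RB1 and its relatives, which then release E2F factors, and E2F1 switches on the genes of DNA replication. Cyclin E with CDK2 completes this phosphorylation and starts replication, while MYC raises the transcription of growth and biosynthesis genes. YAP and TAZ are coactivators that reach DNA through TEAD factors, often beside AP-1, and in many epithelial cells they are known to promote proliferation. The question put to these libraries was how the transcripts of this switch stood after siRNA against both coactivators.

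The libraries held 3175149 to 4317286 counts, of which the top 10 genes held 12.7% to 15.98%. Targeted transcripts remained at 57.5% of the control level for YAP1 and 61.8% for WWTR1. Both transcripts were thus lowered only in part, and these counts do not give the protein levels. For 2 libraries GEO's labels disagree. Groups follow the description field, as do the columns of the table, whereas the titles would exchange siCtrl replicate 2 and siYAP/TAZ replicate 2. Levels of YAP1 and WWTR1 in these libraries went with the descriptions. The level of each gene is given as CPM, its count per 1000000 counts of a library after scaling by TMM, with the SD over 3 libraries. The study's methods speak of 3 biological replicates in each condition for RNA-Sequencing, while the labels of these 3′ libraries only number the replicates. The p-values measure the spread between these libraries.

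Of the G1 genes, CCND3 rose after siYAP/TAZ, to 1.78-fold of the control level. It was the only one of the 9 tested that passed an adjusted p of 0.05 with the quasi-likelihood test of edgeR, and E2F1 had too few counts to enter that test. CCND1 and CDK2 were at 55.3% and 55.7% of the control level with adjusted p-values of 0.191 and 0.0633 by edgeR, and both passed when the replicate number was a block. CCND2, CDK4, CDK6, CCNE2 and MYC had means between 80.3% and 88.8% of control, CCNE1 had 112%, and none of these passed. In bulk libraries fewer cells in a phase of the cycle and less RNA per cell cannot be told apart.

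Promoter sequence of 5 of the 10 genes (CCND3, CCNE1, CDK4, CDK6 and E2F1) could be taken from the RefSeq promoter windows of GRCh38.p14, 8 windows that run from 250 bases before to 50 bases after a start site. Each window was searched on both strands for letters known to be bound by TEAD (GGAATG), AP-1 (TGANTCA), MYC with MAX (the E-box CACGTG) and E2F (TTTCCCGC, TTTCGCGC, TTTGCCGC or TTTGGCGC). Below are the 250 bases upstream of a start site of the gene that passed the test (CCND3), of a gene with 3 E-boxes (CDK4) and of E2F1, whose product can bind E2F letters. Of the 3 windows of CCND3, that with the TEAD letters was picked for display. All 3 genes lie on the minus strand, each sequence reads 5′ to 3′ on it, and capitals mark TEAD letters in CCND3 (chr6:41941809-41942058), E-boxes in CDK4 (chr12:57752311-57752560) and E2F letters in E2F1 (chr20:33686386-33686635).
CCND3: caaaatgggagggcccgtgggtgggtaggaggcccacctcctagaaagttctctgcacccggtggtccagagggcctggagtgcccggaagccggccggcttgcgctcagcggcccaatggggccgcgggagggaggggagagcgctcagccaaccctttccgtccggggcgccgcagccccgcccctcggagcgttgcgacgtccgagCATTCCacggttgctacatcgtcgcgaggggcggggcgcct
CDK4: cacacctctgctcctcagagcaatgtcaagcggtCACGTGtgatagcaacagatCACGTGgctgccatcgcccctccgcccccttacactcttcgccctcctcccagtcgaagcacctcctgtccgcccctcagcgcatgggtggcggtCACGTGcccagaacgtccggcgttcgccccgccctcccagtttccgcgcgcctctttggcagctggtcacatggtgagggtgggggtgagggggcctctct
E2F1: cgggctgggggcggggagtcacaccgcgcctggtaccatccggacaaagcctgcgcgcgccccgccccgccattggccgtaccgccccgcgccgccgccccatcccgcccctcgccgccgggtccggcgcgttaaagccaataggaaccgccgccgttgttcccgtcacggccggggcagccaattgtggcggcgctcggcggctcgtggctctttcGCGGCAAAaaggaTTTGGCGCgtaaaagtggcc

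The CCND3 window shown held the TEAD letters once, 41 bases upstream of its start and on the other strand as CATTCC, and the other CCND3 windows held none. Among all 34943 RefSeq windows, 14.0% hold these letters. CDK4 had 3 E-boxes, which began 216, 196 and 101 bases upstream, and a CDK6 window had 1 that began at base 31 after the start, where 7.23% of all windows have at least 1. In E2F1 the E2F letters began 33 and 20 bases upstream, and 3.3% of all windows hold any of the 4 E2F words. AP-1 letters were found in 0 of the 8 windows and in 7.72% of all windows. Such matches describe letters within a window, not binding.

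**Figure D1:**
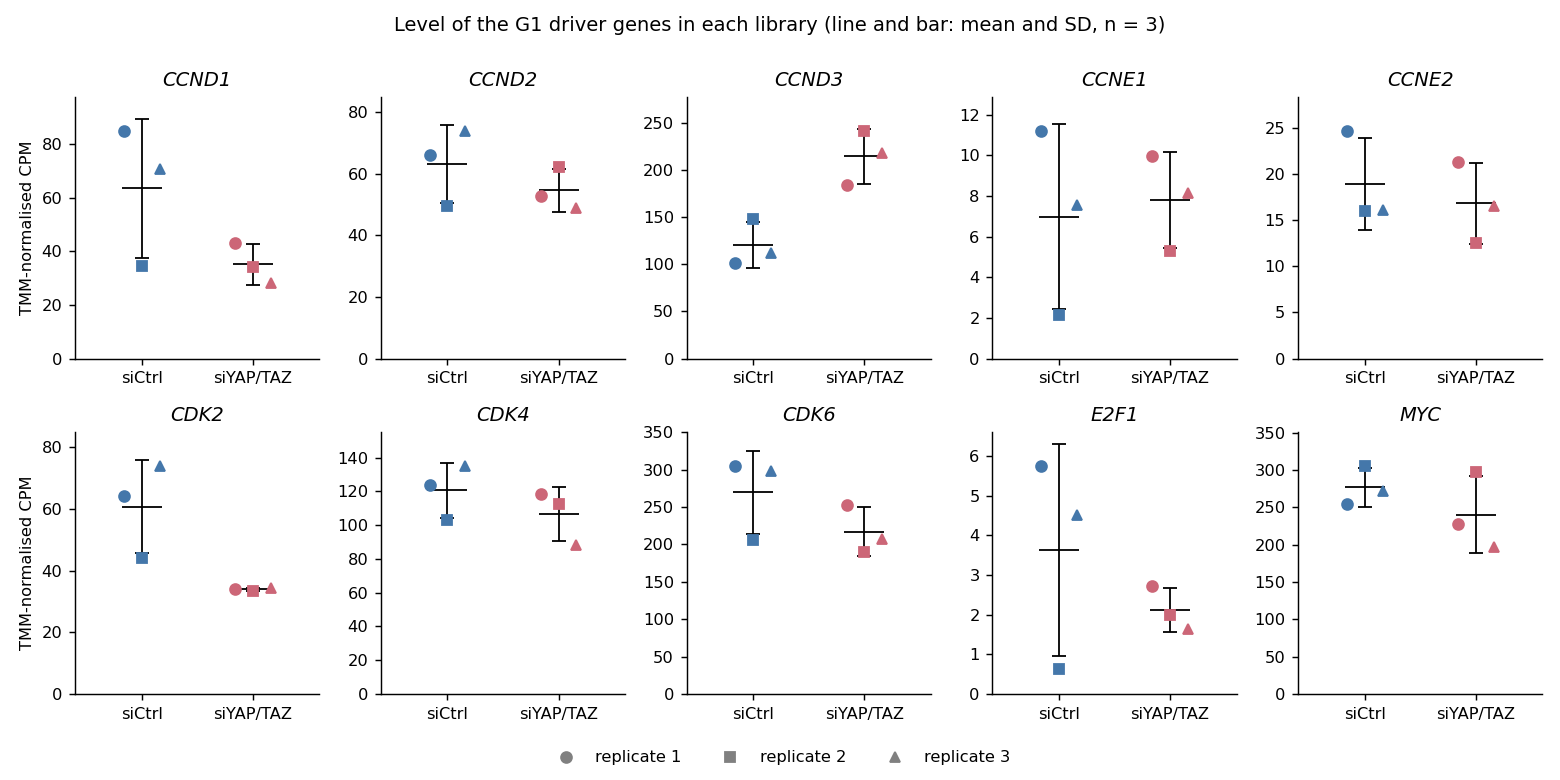
Level of the 10 genes in each library, in TMM-normalised CPM on an axis that starts at 0 for each gene (points, with symbols for replicates 1, 2 and 3; line and bar, mean and SD of 3 libraries). CCND3 is higher and CDK2 lower in each siYAP/TAZ library than in the whole siCtrl group, and the square of siCtrl replicate 2 lies below the other controls for CCND1, CCNE1 and E2F1.

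Cyclin D1, encoded by CCND1 (Entrez 595; GRCh37 chromosome 11, 69455924 to 69469242, plus strand), is the D-type cyclin most often amplified in breast cancer. CCND1 had 85.0, 34.6 and 70.9 CPM in replicates 1, 2 and 3 of siCtrl, against 43.3, 34.05 and 28.0 CPM in those of siYAP/TAZ. The groups overlapped only through siCtrl replicate 2, which was below the other controls and inside the siYAP/TAZ range. The means were 63.5 ± 26.0 and 35.1 ± 7.69 CPM (SD, n = 3), with a log2 fold change of -0.85 (SE 0.30), for which edgeR gave an adjusted p of 0.191. Set against the siCtrl library of the same number, siYAP/TAZ had 50.9%, 98.5% and 39.5% in replicates 1, 2 and 3. With the replicate number as a block the log2 fold change was -0.82 (SE 0.21) at an adjusted p of 0.0377 by edgeR, so CCND1 was called lower there. Without siCtrl replicate 2 it was -1.14 (SE 0.19) at an adjusted p of 0.00448 by edgeR. DESeq2 gave CCND1 an adjusted p of 0.0914. By edgeR CCND1 did not pass without any 1 library other than siCtrl replicate 2 (adjusted p of 0.188 to 0.519) or with groups from the titles (0.898). The end of CCND1 lies under LTO1 on the opposite strand, and whether the counting used strand is not stated. LTO1 had 52, 23 and 60 counts with siCtrl, against 70, 44 and 53 with siYAP/TAZ, fewer than CCND1 in every library.

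CCND2 (Entrez 894; chromosome 12, 4378937 to 4414519, plus strand) encodes cyclin D2. Its end lies within ENSG00000285901, annotated as protein-coding on the same strand, so reads of both could not be told apart by strand. CCND2 had 66.1, 49.4 and 73.9 CPM with siCtrl, against 52.8, 62.1 and 48.7 CPM with siYAP/TAZ. Both groups covered much the same range. The log2 fold change was -0.21 (SE 0.18), with an adjusted p of 0.581 by edgeR.

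CCND3 (Entrez 896; chromosome 6, 41902672 to 42018095, minus strand) encodes cyclin D3, which activates the same kinases and is best known from lymphoid and differentiating cells. CCND3 was at 102, 148 and 112 CPM under siCtrl, and siYAP/TAZ gave 183, 241 and 218 CPM, from 354, 479 and 446 and from 809, 730 and 802 counts. Every siYAP/TAZ library was above every siCtrl library, and the highest level of each group was in its replicate 2. The mean rose from 121 ± 24.2 to 214 ± 29.2 CPM (SD, n = 3), a log2 fold change of 0.83 (SE 0.17; edgeR adjusted p of 0.0463). An exact two-sided permutation test of the 6 levels gave p = 0.1, the smallest that 3 against 3 libraries can give. Within pairs of the same replicate number siYAP/TAZ had 180%, 163% and 195% of the siCtrl level. With the block the log2 fold change was 0.84 (SE 0.11) at an adjusted p of 0.00164 by edgeR, and DESeq2 gave an adjusted p of 0.00219. By edgeR the call was lost without any 1 library other than siCtrl replicate 2, at adjusted p-values of 0.131 without siCtrl replicate 1, 0.219 without siCtrl replicate 3, and 0.0537, 0.154 and 0.196 without siYAP/TAZ replicates 1, 2 and 3. It was also lost, at an adjusted p of 0.905 by edgeR, when libraries were grouped by title.

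The makeup of the D-type cyclin transcripts moved with these levels. CCND3 supplied 40.2%, 63.8% and 43.6% of the D-type cyclin counts in siCtrl replicates 1, 2 and 3, and 65.6%, 71.5% and 74.0% in the siYAP/TAZ libraries. Its mean share was 49.2% ± 12.7 with siCtrl, against 70.4% ± 4.30 with siYAP/TAZ (SD, n = 3), and the lowest siYAP/TAZ share was just above that of siCtrl replicate 2. CCND1 supplied 33.6%, 14.9% and 27.6% with siCtrl, against 15.5%, 10.1% and 9.502% with siYAP/TAZ. In this measure siCtrl replicate 2 lay inside the siYAP/TAZ range. CCND2 shares were 26.1%, 21.3% and 28.8% with siCtrl, against 18.9%, 18.4% and 16.5% with siYAP/TAZ, with no overlap. A share also falls when another member rises, and the CPM of CCND2 itself overlapped between groups. Together the 3 genes summed to 253, 232 and 257 CPM with siCtrl, against 279, 337 and 295 CPM with siYAP/TAZ, so the pooled level of D-type cyclin transcripts was higher in each siYAP/TAZ library than in any control. Of these genes only CCND3 had a higher mean level after siYAP/TAZ, so the higher sum restates its rise. Levels of single genes did not overlap for 11.1% (lower) and 11.0% (higher) of all genes tested. These shares and sums come from a rule that lists the genes and carry no test. In this assay 1 transcript yields about 1 tag whatever its length, so levels of different genes could be compared without a length correction.

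**Figure D2:**
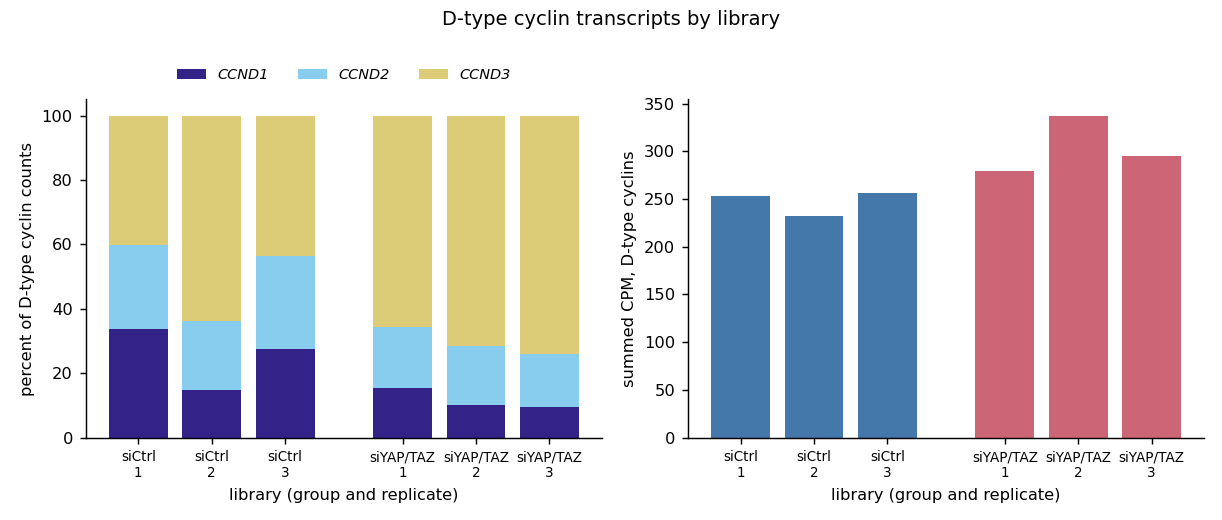
Left, share of CCND1, CCND2 and CCND3 in the D-type cyclin counts of each library, in percent. Right, their summed level in TMM-normalised CPM, by library (group and replicate). CCND3 takes 40.2% to 63.8% in the siCtrl libraries and 65.6% to 74.0% in the siYAP/TAZ libraries, and the summed level is 232 to 257 CPM and 279 to 337 CPM.

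The E-type cyclins activate CDK2 at the end of G1, and in this line both were low. CCNE1 (Entrez 898; chromosome 19, 30302898 to 30315219, plus strand) had 39, 7 and 30 counts with siCtrl, against 44, 16 and 30 with siYAP/TAZ. These are 11.2, 2.16 and 7.54 CPM and 9.97, 5.29 and 8.16 CPM. In both groups replicate 2 had the lowest level. The log2 fold change was 0.17 (SE 0.48), with an adjusted p of 0.889 by edgeR, and its sign turned to -0.23 without siCtrl replicate 2.

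CCNE2 (Entrez 9134; chromosome 8, minus strand) read 24.7, 16.05 and 16.1 CPM in control libraries, next to 21.3, 12.6 and 16.6 CPM after siYAP/TAZ. The groups overlapped, with a log2 fold change of -0.16 (SE 0.27), for which edgeR gave an adjusted p of 0.807. Its end lies under INTS8 on the opposite strand, which had 113, 80 and 108 counts with siCtrl, against 135, 63 and 79 with siYAP/TAZ, above the 86, 52 and 64 and the 94, 38 and 61 counts of CCNE2. The level of CCNE2 is therefore uncertain if the counting ignored strand. Summed E-type cyclin levels were 35.9, 18.2 and 23.6 CPM with siCtrl, against 31.3, 17.9 and 24.7 CPM with siYAP/TAZ. CCNE1 supplied 11.9% of these counts in siCtrl replicate 2 and 29.6% to 33.0% in the other 5 libraries.

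CDK2 (Entrez 1017; chromosome 12, 56360565 to 56366573, plus strand), the partner of the E-type and A-type cyclins, had 64.3, 44.1 and 73.9 CPM with siCtrl, against 33.997, 33.4 and 34.3 CPM with siYAP/TAZ. The 3 siYAP/TAZ libraries were nearly level and below every control, of which replicate 2 was the lowest. The means were 60.8 ± 15.2 and 33.9 ± 0.452 CPM (SD, n = 3), a log2 fold change of -0.85 (SE 0.20; edgeR adjusted p of 0.0633). Pairs of the same replicate number had 52.8%, 75.7% and 46.4% of the siCtrl level. The gene passed with the replicate number as a block (-0.83, SE 0.16, adjusted p of 0.0103 by edgeR), without siCtrl replicate 2 (-1.03, SE 0.15, 0.00254) and in DESeq2 (0.0141). By edgeR CDK2 did not pass without any 1 library other than siCtrl replicate 2 (adjusted p of 0.132 to 0.269) or with groups from the titles (0.898). PMEL, which overlaps its end on the opposite strand, had at most 3 counts in any library.

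CDK4 (Entrez 1019; chromosome 12, 58141510 to 58149796, minus strand) and CDK6 (Entrez 1021; chromosome 7, 92234235 to 92465887, minus strand) encode the partners of the D-type cyclins. CDK4 was at 124, 103 and 135 CPM under siCtrl, and siYAP/TAZ gave 118, 113 and 88.1 CPM. CDK6 was the more abundant, at 305, 206 and 299 CPM and at 253, 190 and 208 CPM. Both genes overlapped between groups, with log2 fold changes of -0.18 (SE 0.16) for CDK4 and -0.32 (SE 0.18) for CDK6 and adjusted p-values of 0.602 and 0.402 by edgeR. For CDK6 the siCtrl library inside the siYAP/TAZ range was again replicate 2. Without it the log2 fold change of CDK6 was -0.47, at an adjusted p of 0.0551 by edgeR. CDK4 made up 28.9%, 33.3% and 31.1% of the CDK4 and CDK6 counts with siCtrl, against 31.8%, 37.3% and 29.8% with siYAP/TAZ. The mean balance between both kinases differed between groups by less than the spread between replicates. TSPAN31 overlaps the end of CDK4 on the opposite strand with 33 to 62 counts.

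E2F1 (Entrez 1869; chromosome 20, 32263283 to 32274191, minus strand) was the least abundant G1 gene in both conditions. It had 20, 2 and 18 counts with siCtrl, against 12, 6 and 6 with siYAP/TAZ, or 5.74, 0.617 and 4.52 CPM and 2.72, 1.98 and 1.63 CPM. The siYAP/TAZ libraries lay between siCtrl replicate 2 and the other controls. The exact Poisson 95% interval, which covers counting error only, was 0.242 to 7.22 for the 2 counts of siCtrl replicate 2 and 10.7 to 28.4 for the 18 counts of replicate 3. Without a low-count filter edgeR gave a log2 fold change of -0.78 with an adjusted p of 0.614, and DESeq2 gave -0.79 with 0.732. Leaving out siCtrl replicate 2 let the gene pass the filter, at -1.24 (SE 0.43) and an adjusted p of 0.0840 by edgeR. The intervals of siCtrl replicates 2 and 3 did not overlap, so these controls differed by more than counting error. No fit called a difference in E2F1 at an adjusted p under 0.05.

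MYC (Entrez 4609; chromosome 8, plus strand) had the highest mean level of the G1 genes in both conditions, although CDK6 was above it in 4 of the 6 libraries, all but the replicate 2 libraries. It read 254, 305 and 272 CPM in control libraries, next to 228, 297 and 197 CPM after siYAP/TAZ. In both groups replicate 2 was the highest, and the groups overlapped. The means were 277 ± 26.0 and 240 ± 51.2 CPM (SD, n = 3), a log2 fold change of -0.21 (SE 0.17), for which edgeR gave an adjusted p of 0.572, or 0.278 when blocked. Unlike CCND1, CDK2 and CDK6, MYC was not low in siCtrl replicate 2, and without that library its log2 fold change was -0.13.

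By mean level the order in siCtrl was MYC, CDK6, CDK4, CCND3, CCND1, CCND2, CDK2, CCNE2, CCNE1 and E2F1. In siYAP/TAZ it was MYC, CDK6, CCND3, CDK4, CCND2, CCND1, CDK2, CCNE2, CCNE1 and E2F1. In siCtrl the libraries of neighbours overlapped for MYC and CDK6, for CDK4 and CCND3, for CCND1 and CCND2, for CCND2 and CDK2, and for CCNE1 and E2F1. In siYAP/TAZ they overlapped for MYC and CDK6, for CDK6 and CCND3, and for CCND1 and CDK2. CCND3 thus stood with CDK4 in the controls and apart from it, beside CDK6, after siYAP/TAZ.

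Of the 9 tested G1 genes, 0 passed as lower and 1 as higher by edgeR, and at an unadjusted p under 0.05 there were 2 and 1. Among all 12510 genes tested, 1.22% were called lower and 0.743% higher, and 9.27% and 8.4% had an unadjusted p under 0.05. DESeq2 called 1 G1 gene lower and 1 higher, against 2.57% and 1.96% of the genes to which it gave an adjusted p. With the block the calls were 2 lower (CCND1 and CDK2) and 1 higher (CCND3) of 9, where 5.44% and 4.66% of all genes were called lower and higher. Without siCtrl replicate 2 they were CCND1 and CDK2 lower and CCND3 higher, of 10 tested, against 6.22% and 6.08% of all genes. That library was the lowest control for CCND1 and CDK2 and the highest for CCND3, so leaving it out widens these differences. Without any other 1 library, 0 G1 genes were called lower and 0 higher by edgeR. Groups did not overlap for 1 lower gene (CDK2) and 1 higher gene (CCND3), against 11.1% and 11.0% of all genes tested, so 1 of 9 in each direction was near the share over all genes. The direction was lower for 7 of 9 genes, with a median log2 fold change of -0.21, while 50.1% of all genes tested were lower.

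**Figure D3:**
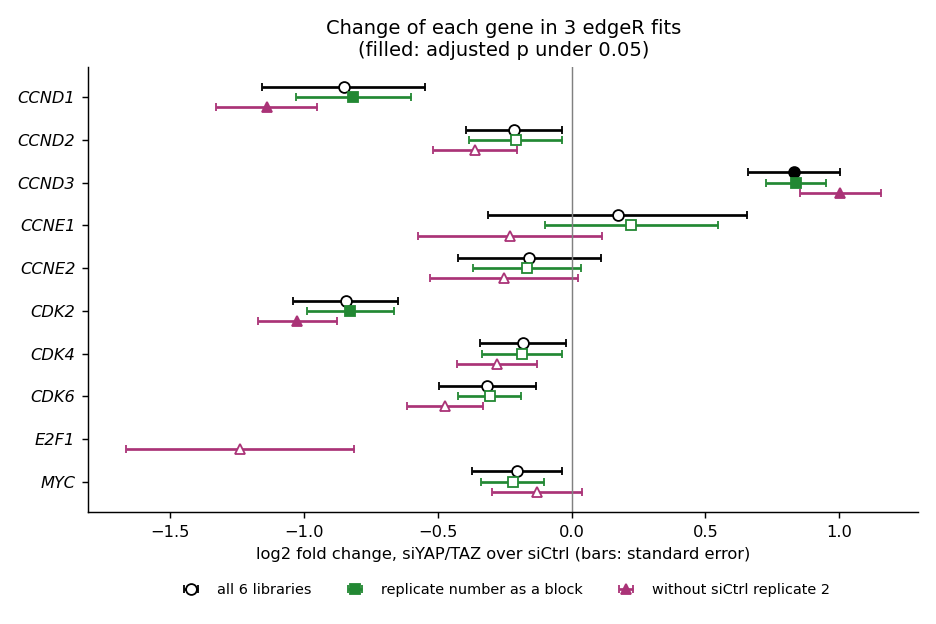
Log2 fold change of siYAP/TAZ over siCtrl by edgeR, with the standard error as a bar, for all 6 libraries (circles), with the replicate number as a block (squares) and without siCtrl replicate 2 (triangles). Filled symbols passed an adjusted p of 0.05. CCND3 is filled in all 3 fits, CCND1 and CDK2 in 2 of them, and E2F1 has a triangle alone because it passed the count filter only in that one of these 3 fits. Fits without any other 1 library are not drawn, and each of them called 0 of these genes.

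The rest of the pathway was read from 8 lists with 96 genes, of which 90 were tested. Of these, 3 were called lower (CDC25C, CCNB1 and CCNB2) and 0 higher by edgeR, with 20 lower and 4 higher at an unadjusted p under 0.05. Over all genes these unadjusted shares were 9.27% and 8.4%. DESeq2 called 9 lower and 2 higher, against 2.57% and 1.96% of all genes. With the block 19 were lower and 4 higher, against 5.44% and 4.66% of all genes. Without siCtrl replicate 2 the counts were 32 and 3 of 92 tested, against 6.22% and 6.08%. That library was the lowest control for 64.4% of the 90 genes and for 39.7% of all genes tested. These shares over all genes also stand beside the counts of each list below. The median log2 fold change over the 90 genes was -0.32, and that of all genes tested was -0.00093.

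The cyclins of S and M phase with CDK1 act after the G1 switch. All 6 genes of this list (CCNA1, CCNA2, CCNB1, CCNB2, CCNF and CDK1) were lower (median log2 fold change -0.81), and 2 were called by edgeR, 4 by DESeq2 and 5 with the block. Of all genes, 1.22%, 2.57% and 5.44% were called lower in these fits. CCNA1 differed least, at 89.7% of control (adjusted p of 0.838 by edgeR), and its log2 fold change turned to 0.18 without siCtrl replicate 2. CCNB1, the mitotic cyclin B1, had 102.5, 89.8 and 91.5 CPM with siCtrl, against 61.9, 41.65 and 49.2 CPM with siYAP/TAZ. It fell by 0.89 on the log2 scale (SE 0.17, adjusted p of 0.0315 by edgeR). CCNB2, its close relative, had 41.9, 45.7 and 54.8 CPM and 27.4, 26.4 and 28.6 CPM, and fell by 0.79 (SE 0.16, adjusted p of 0.0432 by edgeR). For both genes every siYAP/TAZ library was below every control, siCtrl replicate 2 included. Groups did not overlap for 4 lower and 0 higher genes of these 6, against 11.1% and 11.0% of all genes tested. By edgeR CCNB1 was no longer called without siCtrl replicate 1 or 3 or siYAP/TAZ replicate 2 or 3 (adjusted p of 0.102 to 0.172), and CCNB2 without any 1 library other than siCtrl replicate 2 (0.0710 to 0.215) or with a mean of at least 50 counts (0.0502).

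Among 8 enzymes that switch CDKs on or off, 7 were lower, the median was -0.31, and 1 was called. This was CDC25C, the phosphatase that activates CDK1 at mitotic entry, with 28.7, 41.4 and 45.0 CPM with siCtrl, against 12.01, 12.9 and 12.5 CPM with siYAP/TAZ. Its log2 fold change was -1.62 (SE 0.22) with an adjusted p of 0.0107 by edgeR, and again no siCtrl library reached the siYAP/TAZ range. It was not called without siCtrl replicate 3 (adjusted p of 0.0725 by edgeR) or siYAP/TAZ replicate 3 (0.0755). DESeq2 also called 1 gene of this list lower and the block called 2. Groups did not overlap for 4 lower and 0 higher genes of these 8, against 11.1% and 11.0% of all genes tested.

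Of the E2F and DP factors beside E2F1, 7 of 9 were tested, 4 lower and 3 higher, with a median of -0.20. By edgeR 0 passed, with 1 at an unadjusted p under 0.05, and DESeq2 called 0. E2F7, a repressor of the family, was at 56.9, 24.7 and 46.7 CPM under siCtrl, and siYAP/TAZ gave 30.1, 23.1 and 22.6 CPM, with an adjusted p of 0.215 by edgeR (0.0444 when blocked). E2F4, the main partner of the pocket proteins in resting cells, read 41.9, 26.2 and 38.4 CPM in control libraries. After siYAP/TAZ its levels were 27.2, 24.1 and 27.5 CPM (adjusted p of 0.301 by edgeR, 0.144 when blocked). Both repeated the pattern of CCND1, with siCtrl replicate 2 at the siYAP/TAZ level.

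CDK inhibitors and pocket proteins restrain the switch. CDKN2A and CDKN2B had 0 counts in all 6 libraries, and 8 of the 10 genes were tested, with 5 lower, 3 higher and a median of -0.028. By edgeR 0 passed, with 1 (CDKN1C) at an unadjusted p under 0.05, whereas DESeq2 and the block each called that gene higher. CDKN1C, which encodes an inhibitor of cyclin E and cyclin A kinases, had 3.45, 14.8 and 5.53 CPM with siCtrl, against 59.8, 23.8 and 24.2 CPM with siYAP/TAZ. The groups did not overlap, but siYAP/TAZ replicate 1 was far above the others, and the log2 fold change of 2.21 (SE 0.52) had an adjusted p of 0.0680 by edgeR (0.0151 when blocked). RBL1, a pocket protein, was at 33.3, 15.4 and 25.9 CPM under siCtrl. With siYAP/TAZ it had 20.6, 15.9 and 16.05 CPM (adjusted p of 0.384 by edgeR, 0.179 when blocked). RB1 itself had means of 149 and 147 CPM, with an adjusted p of 0.955 by edgeR. Groups did not overlap for 0 lower genes and 1 higher gene of the 8 tested, against 11.1% and 11.0% of all genes tested.

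In the list of cyclin and MYC degradation 9 of 11 genes were lower with a median of -0.16. By edgeR 0 passed, with 4 lower at an unadjusted p under 0.05, while DESeq2 called 2 lower and the block 3. CKS1B and CKS2 encode small adaptors of CDKs. CKS1B read 192, 120.3 and 191 CPM in control libraries, next to 109, 69.7 and 77.5 CPM after siYAP/TAZ, with an adjusted p of 0.0616 by edgeR (0.00170 when blocked). CKS2 had 76.7, 43.5 and 66.3 CPM and 38.3, 20.8 and 32.9 CPM, with 0.0863 by edgeR (0.00164 when blocked). The siCtrl and siYAP/TAZ levels did not overlap for either adaptor, and replicate 2 was the lowest of both groups. Both were named for the smallest p of the list. Groups did not overlap for 4 lower and 0 higher genes of these 11, against 11.1% and 11.0% of all genes tested.

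The MYC network of dimer partners and antagonists was split, with 5 of 10 tested genes lower, 5 higher and a median of 0.097. By edgeR 0 passed, with 1 lower and 2 higher at an unadjusted p under 0.05, DESeq2 called 1 higher, and the block 1 lower and 2 higher. MXD4, which competes with MYC for MAX, had 10.6, 24.7 and 12.1 CPM with siCtrl, against 28.6, 44.3 and 32.6 CPM with siYAP/TAZ, with an adjusted p of 0.100 by edgeR (0.00394 when blocked). MXD3, of the same family, had 173.5, 138 and 158 CPM and 119, 104.8 and 116 CPM, with 0.114 and 0.0265. These relatives differed in direction, and neither overlapped between groups, but both were named for the smallest p of the list. Groups did not overlap for 1 lower and 3 higher genes of the 10 tested, against 11.1% and 11.0% of all genes tested.

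E2F is known to switch on genes of DNA replication. Of 20 such targets, 18 were lower (median log2 fold change -0.72). By edgeR 0 passed, with 5 lower at an unadjusted p under 0.05, DESeq2 called 2, the block 6 and the fit without siCtrl replicate 2 called 13. In the same order, 9.27%, 2.57%, 5.44% and 6.22% of all genes were lower. The library dropped in the last fit was the lowest control for 19 of these 20 genes. MCM7, a subunit of the replicative helicase, was at 53.7, 32.4 and 55.5 CPM under siCtrl, and siYAP/TAZ gave 24.9, 22.8 and 26.7 CPM, with an adjusted p of 0.0680 by edgeR (0.00838 when blocked). RRM1, a subunit of ribonucleotide reductase, had 395.5, 273 and 383.5 CPM and 241, 172 and 201 CPM, with 0.0681 and 0.00205. In both genes the groups did not overlap, although replicate 2 was the lowest control. Both were named for the smallest p of the list. Groups did not overlap for 3 lower genes and 1 higher gene of these 20 (15% and 5%), against 11.1% and 11.0% of all genes tested. Summed over 19 genes of this list, the levels were 1570 (siCtrl replicate 1), 669 (replicate 2) and 1384 (replicate 3) CPM, against 954, 566 and 732 CPM in siYAP/TAZ.

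Targets of MYC in growth and biosynthesis were lower for 18 of 20 genes, with a smaller median of -0.30. The 2 higher genes were ODC1 (log2 fold change 0.15) and TFRC (0.42), and TFRC was the gene called higher with the block. By edgeR 0 passed, with 2 lower and 1 higher at an unadjusted p under 0.05, DESeq2 called 0, and the block 1 lower and 1 higher. Of 20 genes these counts are near the shares over all genes, which were 9.27% and 8.4% at an unadjusted p and 5.44% and 4.66% with the block. CAD, an enzyme of pyrimidine synthesis, read 35.0, 25.9 and 35.4 CPM in control libraries. After siYAP/TAZ its levels were 20.2, 20.2 and 23.7 CPM (adjusted p of 0.151 by edgeR, 0.0610 when blocked). GNL3, the nucleolar protein nucleostemin, had 144.5, 142 and 129 CPM and 123.3, 99.5 and 88.4 CPM, with 0.195 by edgeR (0.0475 when blocked). Neither gene overlapped between groups, but both were named for the smallest p of the list. Groups did not overlap for 3 lower genes and 1 higher gene of these 20 (15% and 5%), against 11.1% and 11.0% of all genes tested.

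**Figure D4:**
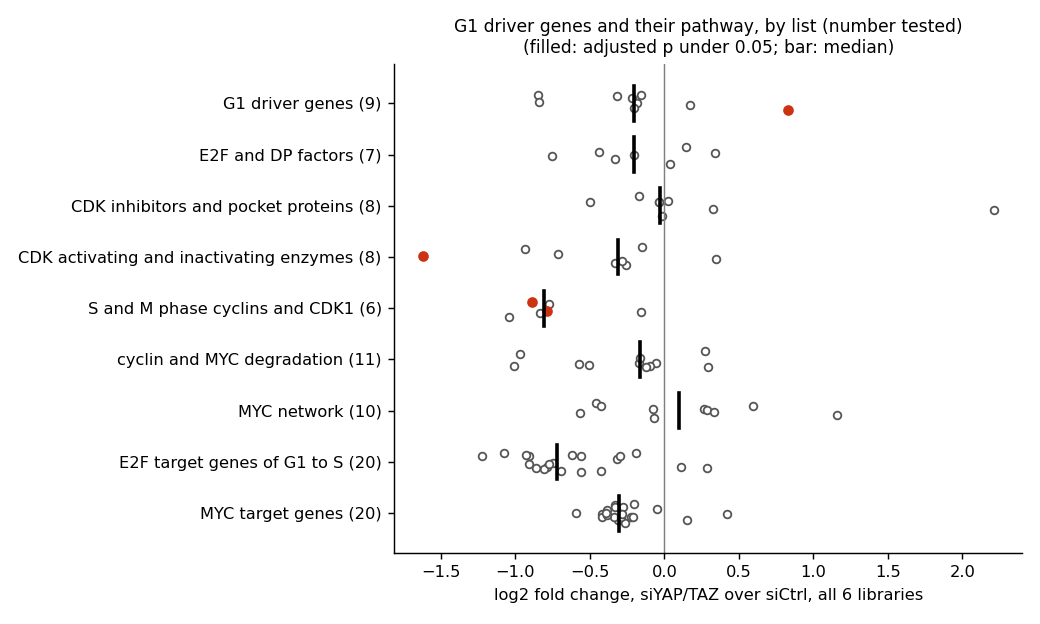
Log2 fold change of siYAP/TAZ over siCtrl by edgeR in all 6 libraries for the tested G1 genes (top) and of each pathway list (number tested in brackets). Each point is a gene, filled points passed an adjusted p of 0.05, and the vertical bar is the median of the list, -0.81 for the S and M phase cyclins with CDK1 and -0.72 for the E2F target genes.

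Because siCtrl replicate 2 was low for so many of these genes, its place was counted. It was the lowest siCtrl library for 7 of the 9 tested G1 genes, for 19 of 20 E2F targets and for 16 of 20 MYC targets, and for 39.7% of all genes tested. The exceptions among the G1 genes were CCND3 and MYC, for which it was the highest control. For 5 of the 9 genes its level lay inside the siYAP/TAZ range, as it did for 40.4% of all genes tested. The reason was not tested.

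**Figure D5:**
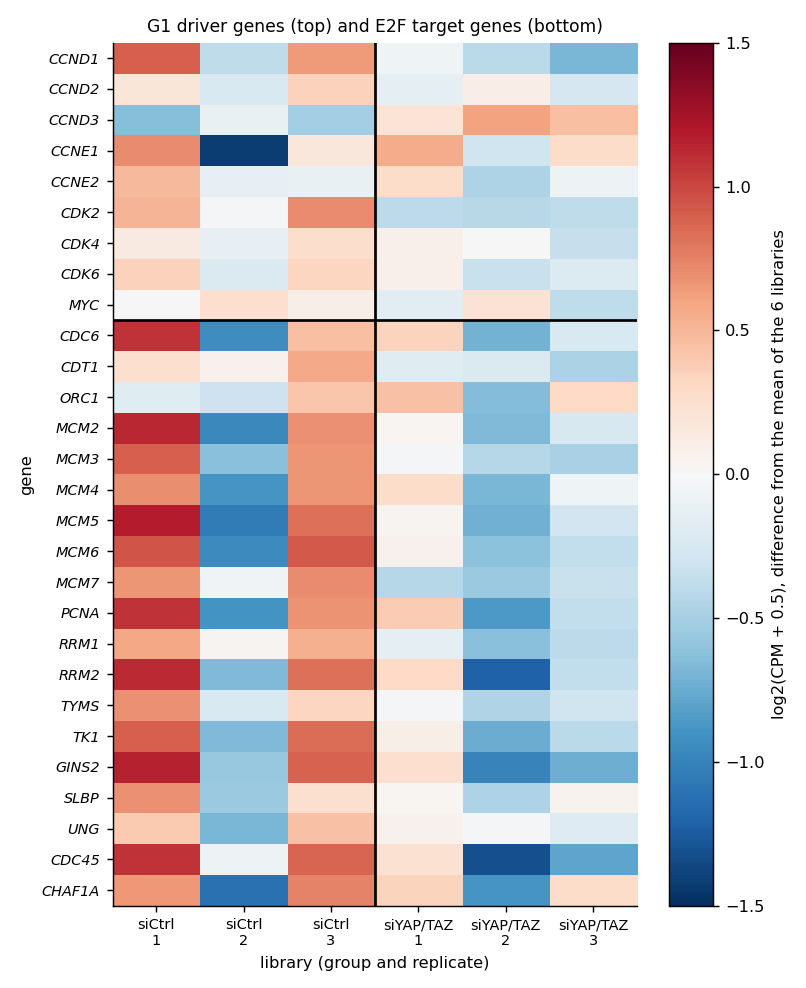
Level of the 9 tested G1 genes (above the line) and of 19 E2F target genes (below it) in the 6 libraries, as the difference of log2(CPM + 0.5) from the mean of the 6 libraries. Red is above and blue below that mean; siCtrl replicates 1 and 3 are red for most E2F targets and siCtrl replicate 2 is blue, as are siYAP/TAZ replicates 2 and 3.

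The CCND3 profile was set beside those of 9786 tested genes with a mean of at least 10 CPM. Likeness was measured as the root mean square difference of log2 CPM from each gene's own mean over the 6 libraries. The nearest were MTRNR2L1 (0.0744), TTPAL (0.0764), IGBP1 (0.0825), TRIM47 (0.0865) and PSAP (0.0867). TTPAL had 19.0, 27.5 and 20.4 CPM with siCtrl, against 31.7, 39.0 and 38.1 CPM with siYAP/TAZ. PSAP, the precursor of the lysosomal saposins, had 208, 323 and 230 CPM and 378.5, 434 and 462 CPM. Likeness in library order follows from this choice and is no separate result. All 5 had adjusted p-values between 0.0721 and 0.108 by edgeR.

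Markers of the cell type were read beside these values. The 8 basal epithelial genes that mark MCF10A were all detected and summed to 3277 to 3663 CPM with siCtrl, against 2489 to 2746 CPM with siYAP/TAZ, so the sum was lower in each siYAP/TAZ library. The 5 luminal genes summed to 142 to 169 and 146 to 149 CPM, with 1 of them at or under 3 counts in every library. The 5 fibroblast genes gave 157 to 173 and 157 to 184 CPM, with 3 of them at or under 3 counts. The 3 leukocyte genes gave 1.44 to 4.94 and 1.36 to 3.97 CPM, and the 2 endothelial genes 1.01 to 2.01 and 3.40 to 9.92 CPM, with 1 gene of each at or under 3 counts. The part of the basal and endothelial differences in the levels of the G1 genes was not tested.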

How the data were processed

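For the 6 QuantSeq libraries the authors deposited raw counts by Entrez gene, not normalised. The submitters' processing notes name cutadapt 4.2, Bowtie2 2.3.5.1 and hg19, while the annotation and the use of strand are not given in the sources used here. Of 23459 IDs, 23308 (99.7% of counts) matched a RefSeq symbol, and 0 value columns were unused.

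Counts were analysed with edgeR 4.0.16 (R 4.3.3) by its quasi-likelihood test, with TMM scaling, no covariate, and the default low-count filter, which left 12510 genes with 99.5% of counts. P-values were Benjamini-Hochberg adjusted over these genes and called under 0.05. Other settings were DESeq2 1.42.0, scaling by RLE or by library size alone, robust dispersion, no filter, a mean of at least 50 counts, a block for replicate number, groups taken from the titles, and removal of both libraries with conflicting labels or of any 1 library. The fit was tested on simulated data, where false genes made up more of the calls than the nominal 0.05. Replicates were never identical (chi-square per degree of freedom of 5.37 to 17.4 within groups).

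Libraries that share a replicate number in the description field deviated together from their group means, replicate 3 only weakly (r of 0.416, 0.345 and 0.129 across genes). The block, set as an alternative, treated them as pairs, while the main fit did not use this pairing.

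Coordinates come from GENCODE 44 lifted over to GRCh37. The genes, lists and tests were chosen with earlier results of these data known. Beyond the 10 genes and the siRNA targets, the text names list genes past the threshold or, where none passed, the 2 with the smallest p, and the 5 profiles nearest to the gene with the smallest p. For list genes named this way, a lack of overlap between groups follows in part from the choice and is no separate result. RB1, CCNA1, ODC1, TFRC and the undetected inhibitors were named after their values were seen. Of the E2F target list, 1 gene is not reported here and is left out of the summed levels.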

Additional observations from a re-analysis of the deposited data

How the results depend on the processing

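RLE scaling, library size alone and robust dispersion kept the direction and the call of each named gene, and each count of calls stayed within 1.5 times. The calls were sensitive to the libraries and to the test. Of the genes tested, 152 were lower and 93 higher, and the numbers were 333 and 254 with DESeq2, 299 and 257 with no low-count filter, 680 and 583 with the replicate block, 591 and 592 without both libraries with conflicting labels, and 0 and 0 with groups from the titles (242 and 222 at an unadjusted p under 0.05, edgeR). Leaving out 1 library gave 10 to 798 lower and 6 to 781 higher genes. Of the G1 genes, 0 were lower and 1 higher. The lower count was 1 with DESeq2, 1 with no filter, 2 with the block and 2 without both libraries, and 0 to 2 with 1 library left out. The higher count was 0 with a mean of at least 50 counts (CCND3 at an adjusted p of 0.0509 by edgeR), 0 with the titles, and 0 to 1 with 1 library left out. Of the list genes, 3 were lower and 0 higher. These were 9 and 2 with DESeq2, 9 and 2 with no filter, 19 and 4 with the block, 2 and 0 with a mean of at least 50 counts (CCNB2 lost), 21 and 2 without both libraries, and 0 and 0 with the titles. With 1 library left out they were 0 to 32 and 0 to 3. CCNE1 turned to a log2 fold change of -0.22 with the titles, -0.030 without both libraries, and, with 1 library left out, ranged from -0.23 to 0.66 (-0.23 without siCtrl replicate 2, -0.050 once siYAP/TAZ replicate 1 was dropped). CCNE2 turned to 0.017 with the titles, and ranged from -0.37 to 0.078 with 1 library left out (0.078 without siCtrl replicate 1, 0.0075 once siYAP/TAZ replicate 2 was dropped). Over all alternatives of 31 named genes, 356 of 464 values kept direction and side of the threshold, 69 newly passed, 32 no longer passed and 7 turned sign. Beyond the values given, the block changed no call of a G1 gene. The causes of these changes were not tested. E2F1 and CCNE1 had the lowest mean levels of the G1 genes, with 2 to 20 and 7 to 44 counts a library.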
